A study of Mus musculus with 12 samples.

Results

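The genes described here are 44 mouse genes of DNA synthesis and repair, named as a list and found by their symbols among 78298 gene rows of a count table. Each symbol matched 1 row, and all 44 passed the filter on low counts that left 22190 genes for testing. They fall into 9 roles: the sliding clamp and its loader (6 genes), replicative polymerases and primase (7), joining of Okazaki fragments (2), single-strand DNA binding (2), supply of deoxynucleotides (5), the fork checkpoint (5), homologous recombination (11), Fanconi crosslink repair (5) and mismatch recognition (1). RNA was sequenced from dissected LLC tumours in mouse lung and from normal lung next to them, in animals given house dust mite (HDM) or VEH. Tissue and treatment together made 4 groups of 3 libraries. LLC is the usual short form of Lewis lung carcinoma, a mouse tumour line, but the labels spell out neither LLC nor VEH, and they give no strain, age, dose or duration. Nothing in the labels says that replicates came from separate animals, so p-values measure the spread between these libraries.

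A cell copies its genome in S phase. The replication fork needs primers from primase, polymerases held on the template by the PCNA clamp, a clamp loader, nucleases and a ligase that join the short lagging-strand pieces, and enzymes that make deoxynucleotides. A fork that stalls exposes single-stranded DNA, which is bound by replication protein A (RPA) and signals through the kinase ATR to CHK1, while homologous recombination, the Fanconi pathway and mismatch repair mend breaks, crosslinks and copying errors. Much of this gene set is transcribed under E2F factors as cells enter S phase, and normal adult lung holds few dividing cells.

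Library names carry a prefix that joins 1 normal and 1 tumour library, and 2 of the 6 prefixes join libraries with different treatment labels. One joins replicate 2 of normal VEH to replicate 2 of tumour HDM, and the other joins replicate 3 of normal HDM to replicate 3 of tumour VEH. Groups follow the labels here, and counts of called genes are also given without these 4 libraries. Total counts ranged from 20608682 to 32765364 per library, and the 44 genes took from 0.0539% to 0.269% of them. The tumour libraries varied in lung RNA: the summed level of 8 alveolar markers was 17631 to 43915 CPM (counts scaled to a common library size) in normal lung, 2365 to 8843 CPM in VEH tumours and 42.0 to 2546 CPM in HDM tumours, lowest in tumour HDM replicate 3, where the surfactant gene Sftpc was at 3.12 CPM and the airway gene Ccdc153 at 0.

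Promoter sequence is shown first, because many of these genes carry an E2F motif at the start of transcription. The RefSeq promoter table (build GRCm38.p6, 250 bases before to 50 after each start) held 42 promoters of 37 of the 44 genes. Fancd2, Rad54b, Rfc2, Exo1, Prim2, Xrcc2 and Pole were not matched. The E2F motif was searched on both strands as TTCCCGC, or with GG in its middle as TTGGCGC, or with GC there as TTGCCGC, or with CG there as TTCGCGC, and it occurred in 24 of the 42 promoters (57.1%), beside 14.6% of the 17035 promoters of all tested genes and 9.57% of the 32851 promoters in the table. Within only the 250 bases before the start, the shares were 26.2%, 12.1% and 7.89%. The CCAAT box bound by NF-Y (CCAAT on both strands) occurred in 50% of the genes' promoters and in 36.8% of those of all tested genes. The CHR element of late cell-cycle genes (TTTGAA or TTCGAA on both strands) occurred in 11.9% and 14.8%. The median GC content was 57.7% for the genes' promoters and 59.3% for those of all tested genes.

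For 16 genes an E2F match that had 10 bases of the table's window on either side began no further than 70 bases before the start. The first 6 lines below show such matches in members with rises of over 4-fold in tumours under both treatments, and the last 4 show them in members without such a rise under both, each with 10 bases on either side, 5′ to 3′ on the gene's strand, and the motif in capitals.
Clspn: ccgcgtctggGCGCGAAagctcgaact
Rad51ap1: ctggttttcgGCGGGAAttgaaaccgc
Brca1: ctagcgctagGCGCCAAgcggccggtt
Pole2: gtcggcggtgGCGCCAAatcgcgaaca
Brip1: ggggcgggagGCGCGAAttcatctgtg
Prim1: gcctgtcttgTTCCCGCcaattctcgt
Rrm1: ggagaactcgTTCCCGCcaggtccgct
Rfc4: ccgttctgtgGCGGGAAccgcggtgcc
Rpa2: ctgtcccttcGCGGGAAggagtttgtg
Fanci: gtggagtagaGCGGGAAttttggaagg
On GRCm38.p6 these windows lie at chr4:126556991-126557017 (Clspn), chr6:126939559-126939585 (Rad51ap1, minus strand), chr11:101551918-101551944 (Brca1, minus strand), chr12:69228164-69228190 (Pole2, minus strand) and chr11:86201181-86201207 (Brip1, minus strand). The others lie at chr10:128015190-128015216 (Prim1), chr7:102441618-102441644 (Rrm1), chr16:23127703-23127729 (Rfc4, minus strand), chr4:132768313-132768339 (Rpa2) and chr7:79392346-79392372 (Fanci). Fanci, which was not called in either tumour comparison, carries the same GCGGGAA as Rad51ap1, which rose most in tumours under VEH. Under HDM 2 of 15 alternative analyses called Fanci, and its values are uncertain, since exons of Polg on the opposite strand overlap 18.2% of its exon length. A match is a string of letters in this window and not a measured binding site.

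The 100 bases before the start of Rrm1 and of Prim1 are picked examples that hold both an E2F match and a CCAAT box, with both motifs in capitals. Other promoters with an E2F match, such as those of Pole2, Rfc4 and Fanci, held no CCAAT box. In Prim1 the E2F match and the CCAAT box share letters.
Rrm1: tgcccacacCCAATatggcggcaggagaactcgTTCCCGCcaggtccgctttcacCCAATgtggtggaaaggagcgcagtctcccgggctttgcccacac
Prim1: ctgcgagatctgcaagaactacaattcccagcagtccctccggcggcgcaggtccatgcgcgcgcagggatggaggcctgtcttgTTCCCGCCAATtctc
These stretches are chr7:102441595-102441694 and chr10:128015115-128015214, both on the plus strand. Members with an E2F motif (23) had a median log2 fold change, tumour minus normal, of 1.88 under VEH and 2.46 under HDM. Those with a promoter in the table and no motif (14) had medians of 1.20 and 1.29. The 7 members with no promoter in the table had medians of 2.16 and 2.96, above those with the motif. The ranges with and without the motif overlapped, at 0.43 to 3.34 and 0.20 to 2.56 under VEH. Under HDM they were 0.475 to 4.84 and 0.501 to 3.94, and this is a description with no test.

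Comparing tumour with normal lung asks how copying and mending genes stand in LLC tumours relative to adjacent lung. Replication and repair genes rose in tumours under both treatments. Under VEH, 39 of the 44 genes were called higher in tumour (edgeR's quasi-likelihood test, Benjamini-Hochberg adjustment over all tested genes, threshold 0.05) and none was lower. Of all tested genes 38.9% were called, 18.2% higher and 20.6% lower. Under HDM, 43 of 44 were higher and none lower, where 51.9% of all tested genes were called, 23% higher and 28.9% lower. The 44 genes were chosen with earlier results of these data known, so these counts are descriptions and not a test of the list. The median log2 fold change of the 44 genes was 1.72 under VEH (range 0.20 to 3.34) and 2.06 under HDM (0.47 to 4.84), where that of all tested genes was -0.11 and -0.08. With scaling by library size alone the median of all genes was 0.03 and 0.10, and the same numbers of members, 39 and 43, were called. In bulk tissue, fewer cells of a type and less RNA per cell cannot be told apart.

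Without the 4 libraries whose prefix conflicts with their treatment label, 36 of the 44 genes were called higher under VEH and 43 under HDM, with medians of 2.01 and 2.49. Leaving them out moved the fold change of 12 genes under VEH and 6 under HDM by over 1.5 times, and under HDM these were Bard1 (3.87), Chek1 (4.73), Fanci (1.06), Pole2 (3.90), Rad54b (4.92) and Xrcc3 (1.79). The same 39 genes called under VEH were called under HDM, and 4 were called only under HDM: Rfc5, Atr, Timeless and Xrcc3. Fanci was called in neither. The share of all tested genes called under both treatments was not computed. For 39 of the 44 genes, every one of the 6 tumour libraries lay above every one of the 6 normal libraries, which held for 16.4% of all tested genes. The 5 others were the same Rfc5, Atr, Timeless, Xrcc3 and Fanci. Within a treatment, tumour and normal libraries did not overlap for 41 genes under VEH, beside 23.9% of tested genes with tumours higher and 28.5% with tumours lower, and for 43 under HDM, beside 29.6% and 33.5%. All of these members were higher in tumours.

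**Figure D1:**
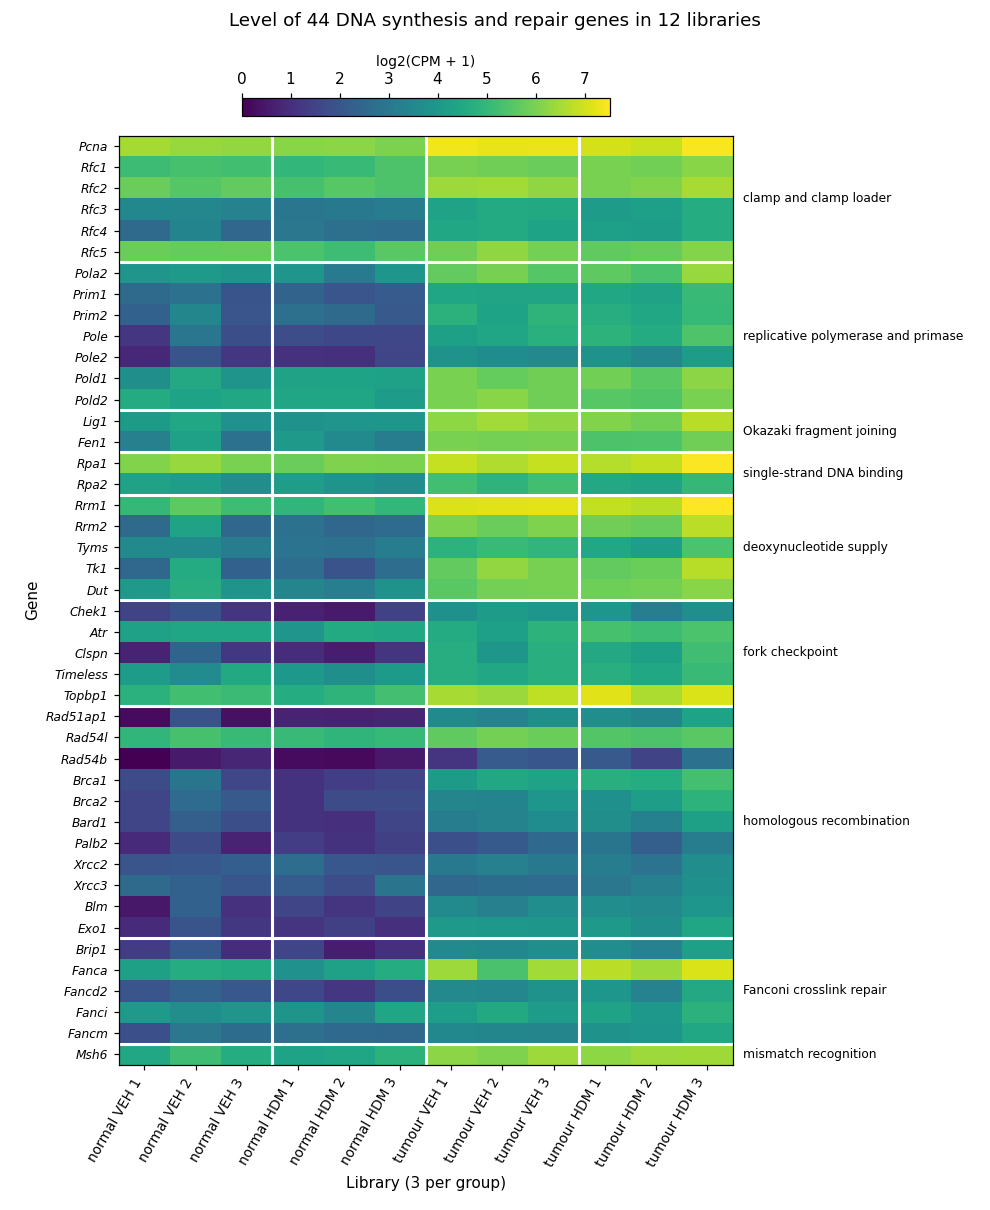
Level of the 44 genes (rows, grouped by role) in 12 libraries (columns, 3 per group), as log2(CPM + 1). All genes share 1 colour scale, but levels are not divided by gene length, so the colours serve to compare libraries within a gene. The 6 tumour columns are brighter than the 6 normal ones for most genes. Normal VEH replicate 2 is the brightest normal column for 29 genes, and tumour HDM replicate 3 is the brightest of all for 37. Brightest columns were not counted over all tested genes.

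Of the clamp and its loader, 5 of 6 genes rose under VEH and all 6 under HDM, with smaller rises than most roles (median log2 fold change 0.82 and 0.94). Pcna encodes the ring that tethers polymerases and many repair proteins to DNA. Its CPM, listed here and for later genes in the order of replicates 1, 2 and 3, was 89.4, 80.4 and 77.2 in normal VEH, 72.0, 72.3 and 64.2 in normal HDM, 162, 153 and 155 in tumour VEH and 129, 117 and 173 in tumour HDM. Tumour and normal libraries were fully apart, and the rise was 1.90-fold under VEH and 2.01-fold under HDM, with log2 fold changes of 0.93 ± 0.15 (SE) under VEH (edgeR adjusted p = 0.0014) and 1.01 ± 0.15 under HDM (adjusted p = 0.000477).

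The loader that opens the clamp has 5 subunits, and they did not move by the same amount. Rfc2 was at 54.1, 45.4 and 51.7 CPM in normal VEH, 38.9, 46.0 and 41.5 CPM in normal HDM, 83.7, 87.8 and 75.5 CPM in tumour VEH and 62.6, 66.9 and 91.4 CPM in tumour HDM. Its log2 fold change was 0.71 ± 0.16 under VEH and 0.81 ± 0.16 under HDM (edgeR adjusted p = 0.00612 and 0.00201), and 1 of 15 alternative analyses ended the call of Rfc2, and 1 that of Rfc1, under VEH. Rfc5, the subunit with the smallest change, was at 55.4, 52.0 and 54.0 CPM in normal VEH, 40.5, 35.1 and 47.0 CPM in normal HDM, 57.9, 75.5 and 61.1 CPM in tumour VEH and 50.4, 53.8 and 69.2 CPM in tumour HDM. Its HDM tumours overlapped its VEH normal libraries. The log2 fold change of Rfc5 was 0.27 ± 0.16 under VEH (edgeR adjusted p = 0.203) and 0.50 ± 0.16 under HDM (adjusted p = 0.025), and 5 of 15 alternative analyses ended the call under HDM. Rfc4 rose most, by 1.74 ± 0.29 and 1.71 ± 0.29.

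Per length, in CPM per kilobase of gene model (RPKM), Rfc4 stood at 4.17 ± 1.74 (SD, n = 3) in normal VEH and 3.95 ± 0.489 in normal HDM, well under Rfc5 at 11.5 ± 0.361 and 8.75 ± 1.27. In tumours they stood at similar levels, with Rfc4 at 14.0 ± 1.32 under VEH and 12.9 ± 2.57 under HDM and Rfc5 at 13.9 ± 2.0 and 12.4 ± 2.15. The ratio of Rfc4 to Rfc5 was 0.261 to 0.554 in the normal libraries and 0.942 to 1.14 in the tumours, with no overlap. Rfc3 went the same way against Rfc5, at 0.238 ± 0.0192 and 0.235 ± 0.0252 in normal VEH and HDM and at 0.434 ± 0.0399 and 0.433 ± 0.0163 in the tumours. Exons of Rfc5 overlap those of Wsb2 on the opposite strand over 41.4% of their length, and exons of Rfc4 overlap those of Eif4a2 over 29%. Both neighbours had more counts than the loader gene, and whether counting used the strand is not given in the sources used here, so these values are uncertain. Exons of Rfc2 and Pcna overlap opposite-strand genes with fewer counts, Lat2 and AV099323, over 24.3% and 20.8% of their length.

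**Figure D2:**
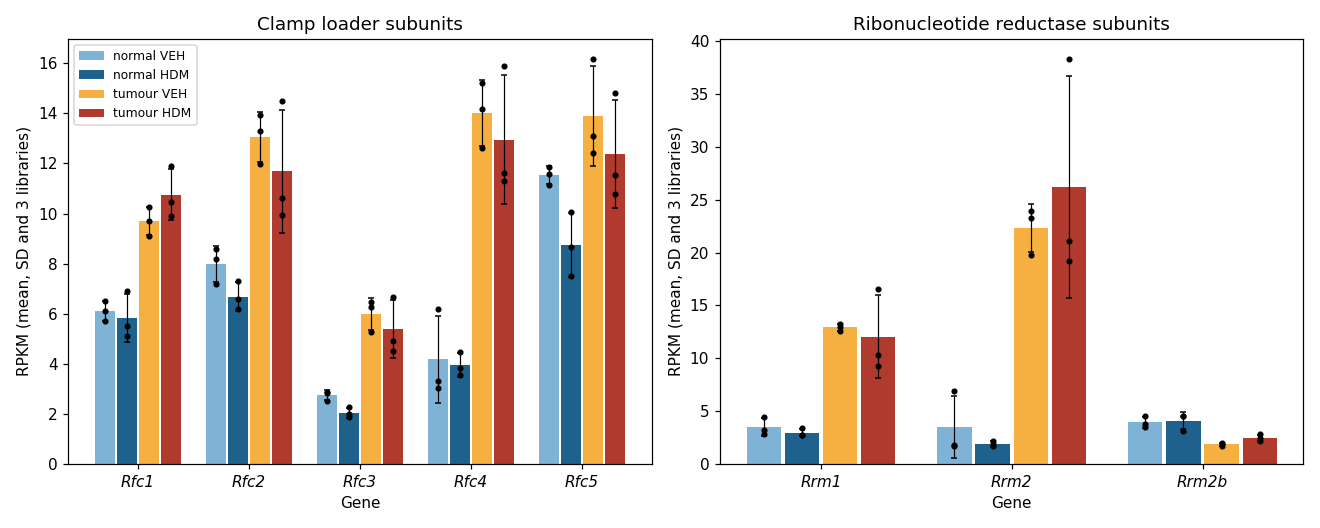
Level per length (RPKM) of the 5 clamp loader subunits (left) and of 3 ribonucleotide reductase subunits (right); bars are means of 3 libraries per group, lines are SD and points are libraries. Per length, Rfc4 rises from well under Rfc5 to its level in tumours, and Rrm2 rises above Rrm1 while Rrm2b falls. The order of subunits within a group rests on the deposited gene lengths, and in CPM Rrm1 lies above Rrm2 in every group.

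All 7 polymerase and primase genes rose under both treatments (median log2 fold change 2.11 and 2.46). Pold2, a subunit of the lagging-strand polymerase delta, was at 23.6, 19.4 and 21.2 CPM in normal VEH, 20.8, 20.9 and 16.6 CPM in normal HDM, 63.5, 71.2 and 57.9 CPM in tumour VEH and 46.3, 43.8 and 63.1 CPM in tumour HDM. Pold1, its catalytic subunit, was at 12.3, 22.2 and 13.8 CPM in normal VEH, 19.1, 19.5 and 18.7 CPM in normal HDM, 63.2, 52.7 and 58.1 CPM in tumour VEH and 59.2, 46.9 and 72.7 CPM in tumour HDM. Every tumour library held at least the level of the highest normal one for both genes. The log2 fold changes were 1.59 ± 0.18 and 1.39 ± 0.18 for Pold2 (edgeR adjusted p = 0.000342 and 0.000217) and 1.85 ± 0.23 and 1.64 ± 0.23 for Pold1 (0.000501 and 0.000349), under VEH and HDM.

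The genes of the leading-strand polymerase epsilon started lower and rose further. Pole, its catalytic subunit, was at 1.27, 6.70 and 2.48 CPM in normal VEH, 2.46, 2.11 and 2.06 CPM in normal HDM, 18.4, 20.3 and 26.4 CPM in tumour VEH and 28.2, 23.4 and 42.6 CPM in tumour HDM. Its log2 fold change was 2.63 ± 0.50 under VEH (edgeR adjusted p = 0.00304) and 3.83 ± 0.53 under HDM (0.000339). Normal VEH replicate 2 held the highest normal level, and without it the value under VEH was 3.53. Pole2, its partner subunit, had log2 fold changes of 2.85 ± 0.47 and 3.28 ± 0.48, and of 3.54 under VEH without that library. The histone-fold subunits Pole3 and Pole4, which are not among the 44 genes, rose less, by 0.40 ± 0.14 and 0.63 ± 0.23 under VEH and by 0.66 ± 0.14 and 0.78 ± 0.23 under HDM. Of the accessory polymerase delta subunits, Pold3 and Pold4 were not called in either comparison (log2 fold changes 0.27 to 0.44).

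Polymerase alpha and primase start each new strand with a short RNA-DNA primer. The primase catalytic gene Prim1 rose by 2.11 ± 0.31 under VEH and 2.77 ± 0.31 under HDM, and the large primase subunit gene Prim2 by 2.16 ± 0.42 and 2.46 ± 0.43. Without normal VEH replicate 2, Prim2 was at 2.86 under VEH. Pola2 rose by 1.85 ± 0.29 and 2.22 ± 0.30, and its catalytic partner Pola1, from outside the list, by 2.26 ± 0.24 and 2.49 ± 0.24. The subunit ratios of these enzymes overlapped between tissues: Prim1 to Prim2 was 0.888 to 1.91 in normal and 1.07 to 1.56 in tumour libraries per length, and Pold2 to Pold1 was 2.24 to 4.90 and 2.0 to 3.46.

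Both genes of Okazaki fragment joining rose under both treatments. Lig1 encodes the ligase that seals the nicks. It was at 15.9, 21.3 and 12.8 CPM in normal VEH, 13.1, 14.0 and 14.8 CPM in normal HDM, 75.2, 87.1 and 76.1 CPM in tumour VEH and 67.0, 59.5 and 104 CPM in tumour HDM, with log2 fold changes of 2.25 ± 0.24 and 2.46 ± 0.24 (edgeR adjusted p = 0.000331 and 9.72e-05). Fen1, the flap nuclease that trims primers, was at 8.71, 18.6 and 6.06 CPM in normal VEH, 15.4, 11 and 8.03 CPM in normal HDM, 62.5, 60.6 and 62.1 CPM in tumour VEH and 41.4, 42.5 and 58.1 CPM in tumour HDM. The VEH tumours were close together and all above the HDM tumours. Fen1 had log2 fold changes of 2.47 ± 0.38 and 2.04 ± 0.38 (0.00115 and 0.00148), and of 3.07 under VEH without normal VEH replicate 2. Its exons overlap genes on the opposite strand over 65.9% of their length. Of these genes, Gm10143 had 10974 counts to 10448 of Fen1, so the values of Fen1 are uncertain.

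RPA coats single-stranded DNA at forks and breaks, and both of its member genes rose, by less than most (median log2 fold change 0.85 and 0.93). Rpa1, the large subunit, was at 67.1, 81.6 and 63.5 CPM in normal VEH, 54.6, 65.2 and 64.2 CPM in normal HDM, 115, 98.0 and 115 CPM in tumour VEH and 102, 112 and 177 CPM in tumour HDM. Its log2 fold change was 0.63 ± 0.20 under VEH (edgeR adjusted p = 0.0313) and 1.08 ± 0.20 under HDM (0.00159), and 4 of 15 alternatives ended the call under VEH. Rpa2, which carries the phosphorylation sites of the damage response, was at 19.0, 17.1 and 12.2 CPM in normal VEH, 17, 14.0 and 12.0 CPM in normal HDM, 37.1, 28.6 and 36.5 CPM in tumour VEH and 22.3, 19.9 and 31.1 CPM in tumour HDM. Here the larger value was under VEH, with 1.08 ± 0.24 against 0.77 ± 0.24 under HDM (0.00574 and 0.0188), and 2 of 15 alternatives ended the call under HDM. Per length, Rpa2 to Rpa1 was 0.543 to 0.602 in the VEH tumours and 0.329 to 0.408 in the HDM tumours, with the normal libraries of both treatments between 0.350 and 0.581. The ratio was picked out after its values were seen and carries no test.

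All 5 genes of deoxynucleotide supply rose under both treatments (median log2 fold change 1.88 and 2.60). Ribonucleotide reductase makes deoxynucleotides from ribonucleotides, and its large subunit gene Rrm1 was at 31.1, 49.4 and 35.7 CPM in normal VEH, 30.1, 37.1 and 30.5 CPM in normal HDM, 138, 142 and 146 CPM in tumour VEH and 113, 103 and 182 CPM in tumour HDM. The tissues were far apart, with log2 fold changes of 1.88 ± 0.23 and 2.03 ± 0.24 (edgeR adjusted p = 0.000501 and 0.000159). Rrm2, the small subunit of S phase, was at 5.01, 19.0 and 4.8 CPM in normal VEH, 5.98, 4.61 and 5.16 CPM in normal HDM, 64.6, 54.8 and 66.3 CPM in tumour VEH and 58.6, 53.1 and 106 CPM in tumour HDM. It rose by 2.68 ± 0.51 under VEH and 3.79 ± 0.53 under HDM (0.00304 and 0.000396), and without normal VEH replicate 2 the value under VEH was 3.66. Rrm2b, the alternative small subunit induced by p53, fell by 1.10 ± 0.18 under VEH and by 0.72 ± 0.18 under HDM (0.00157 and 0.00744), and 2 of 15 alternatives ended the call under HDM.

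Per length, Rrm2 to Rrm2b was 0.366 to 0.592 in 5 of the 6 normal libraries, 1.96 in normal VEH replicate 2 and 6.87 to 15.7 in the tumours. Rrm2 to Rrm1 was 0.494 to 0.788 in the same 5 normal libraries and 1.53 to 2.32 in the tumours, and normal VEH replicate 2, at 1.53, lay level with the lowest tumour. Exons of Rrm2 overlap an opposite-strand gene, Gm59512, over 43.3% of their length. Gm59512 had 3857 counts to 12163 of Rrm2, so the values of Rrm2 are also uncertain.

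Tk1, the thymidine kinase of the salvage route, was at 4.68, 23.5 and 4.04 CPM in normal VEH, 5.49, 2.79 and 5.49 CPM in normal HDM, 51.6, 77.1 and 62.3 CPM in tumour VEH and 51.7, 56.0 and 104 CPM in tumour HDM. Normal VEH replicate 2 lay several times above the other normal libraries and under all tumours. The log2 fold change of Tk1 was 2.56 ± 0.64 under VEH (edgeR adjusted p = 0.0108) and 3.94 ± 0.68 under HDM (0.00111), and under VEH it was 3.87 without that library. Tyms, which makes thymidylate, rose by 1.60 ± 0.30 and 1.99 ± 0.31. Dut, which clears dUTP and so keeps uracil out of DNA, rose by 1.64 ± 0.25 under VEH and 2.60 ± 0.26 under HDM.

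**Figure D3:**
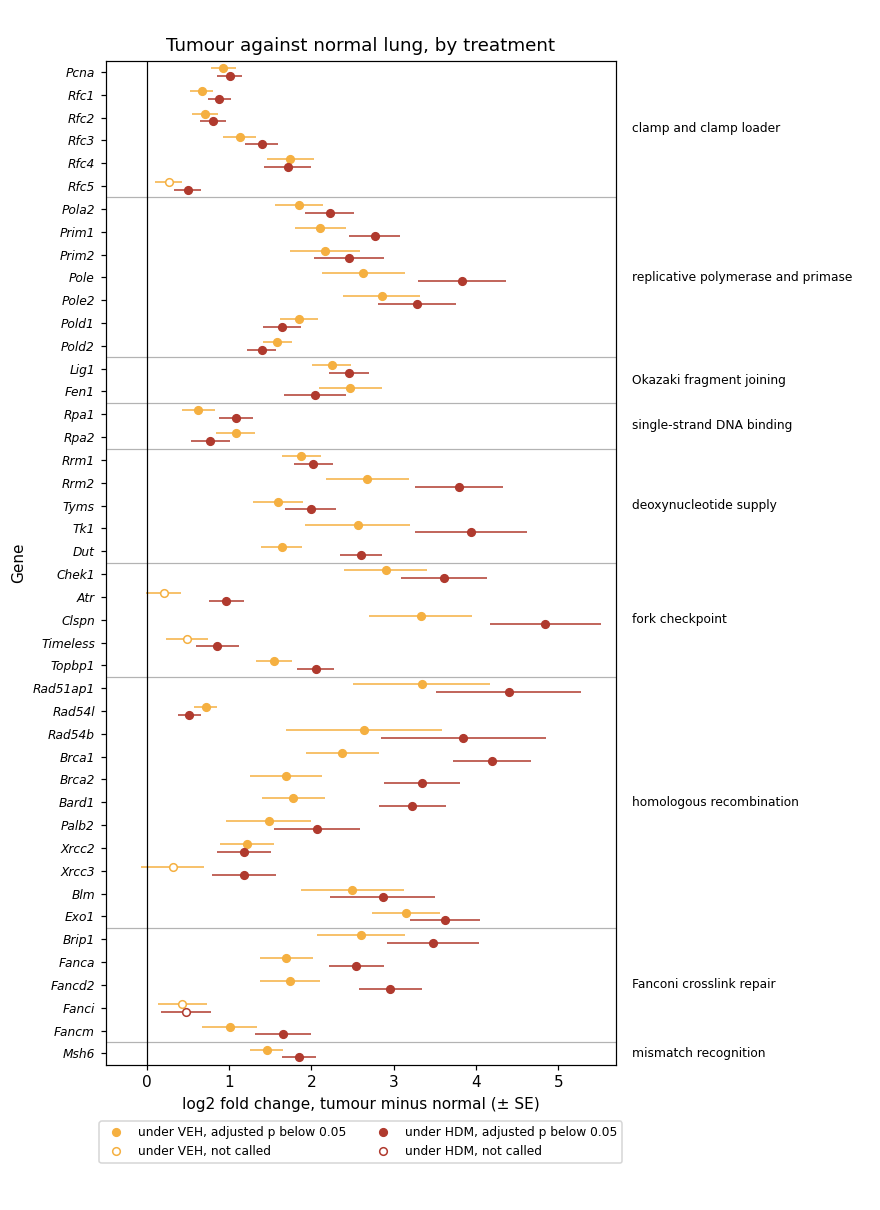
Log2 fold change ± SE, tumour minus normal, of each of the 44 genes under VEH (orange) and HDM (red); filled points have an adjusted p below 0.05 and open points do not. All points lie to the right of 0, and the open points are Rfc5, Atr, Timeless, Xrcc3 and Fanci under VEH and Fanci under HDM.

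The fork checkpoint genes were uneven, with 3 of 5 higher under VEH and all 5 under HDM (median log2 fold change 1.54 and 2.05). Topbp1, which activates ATR at stalled forks, was at 27.1, 36.6 and 34.2 CPM in normal VEH, 24.0, 28.5 and 37.8 CPM in normal HDM, 91.5, 83.3 and 111 CPM in tumour VEH and 144, 95 and 135 CPM in tumour HDM. Tumours lay apart from normal lung, with log2 fold changes of 1.54 ± 0.22 and 2.05 ± 0.22 (edgeR adjusted p = 0.000772 and 0.000128). Clspn encodes claspin, the adaptor through which ATR activates CHK1. It was at 0.657, 4.37 and 1.35 CPM in normal VEH, 0.942, 0.529 and 1.18 CPM in normal HDM, 24.6, 14.8 and 25.3 CPM in tumour VEH and 22.3, 18.2 and 35.8 CPM in tumour HDM. Its log2 fold change under HDM, 4.84 ± 0.68 (0.000365), was the highest of the 44 genes in that comparison. Under VEH it was 3.33 ± 0.63 (0.00285), and 4.43 without normal VEH replicate 2. Chek1, which encodes CHK1, rose by 2.90 ± 0.50 and 3.61 ± 0.52, and under HDM the value was 4.54 without normal HDM replicate 3.

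Atr, the kinase at the head of this pathway, was at 18.8, 20.9 and 21.0 CPM in normal VEH, 14.1, 23.3 and 21.6 CPM in normal HDM, 23.8, 18.1 and 28.0 CPM in tumour VEH and 39.1, 35.1 and 41.1 CPM in tumour HDM. The VEH tumours overlapped normal lung and the HDM tumours stood above all 9 other libraries. The log2 fold change of Atr was 0.20 ± 0.21 under VEH (edgeR adjusted p = 0.461) and 0.97 ± 0.22 under HDM (0.00397). Timeless, part of the fork protection complex, was at 16.4, 11.3 and 22.8 CPM in normal VEH, 15.1, 12.3 and 16.1 CPM in normal HDM, 24.5, 21.1 and 25.3 CPM in tumour VEH and 25.2, 21.1 and 32.5 CPM in tumour HDM. Normal VEH replicate 3 reached into the range of the tumours. Timeless had log2 fold changes of 0.49 ± 0.26 under VEH (0.15) and 0.86 ± 0.26 under HDM (0.0177), and 2 of 15 alternatives gave a call under VEH while 1 of 15 ended that under HDM.

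Of the 11 homologous recombination genes, 10 rose under VEH and all 11 under HDM (median log2 fold change 1.78 and 3.22). Rad54l, a motor protein of strand exchange, was at 29.7, 39.5 and 32.3 CPM in normal VEH, 32.2, 29.2 and 31.6 CPM in normal HDM, 50.0, 60.4 and 56.3 CPM in tumour VEH and 44.3, 41.9 and 47.0 CPM in tumour HDM. It had one of the smaller rises, 0.72 ± 0.14 and 0.52 ± 0.14 (edgeR adjusted p = 0.00318 and 0.00973), and 2 of 15 alternatives ended the call under HDM. Exons of Rad54l overlap those of Lrrc41 on the opposite strand over 22.2% of their length. Lrrc41 had 21678 counts to 13040 of Rad54l, so the values of Rad54l are uncertain. Brca1, which directs breaks into recombination, was at 2.30, 6.61 and 2.02 CPM in normal VEH, 1.15, 1.59 and 1.99 CPM in normal HDM, 16.0, 21.8 and 19.3 CPM in tumour VEH and 25.0, 24.2 and 37.5 CPM in tumour HDM. All 3 HDM tumours lay above all 3 VEH tumours. Brca1 rose by 2.38 ± 0.44 under VEH (0.00255) and by 4.19 ± 0.48 under HDM (0.000146), and under VEH the value was 3.14 without normal VEH replicate 2.

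The partners of BRCA1 rose as well. Bard1, its RING partner, rose by 1.78 ± 0.38 and 3.22 ± 0.41, Brca2, which prepares broken ends for strand exchange, by 1.69 ± 0.44 and 3.34 ± 0.47, and Palb2, which bridges BRCA1 and BRCA2, by 1.48 ± 0.51 and 2.07 ± 0.52. The rise of Palb2 under VEH had an edgeR adjusted p of 0.0411, and 8 of 15 alternatives ended that call, while the value without normal VEH replicate 2 was 2.23. For Brca2, 1 of 15 ended the call under VEH. Rad51ap1, a cofactor of strand exchange, was at 0.164, 2.71 and 0.253 CPM in normal VEH, 0.655, 0.604 and 0.70 CPM in normal HDM, 11, 9.00 and 12.4 CPM in tumour VEH and 11.9, 9.97 and 19.6 CPM in tumour HDM. Normal VEH replicate 2 held over 10 times the level of the other normal VEH libraries. Its log2 fold change was 3.34 ± 0.83 under VEH (0.0105), 5.66 without that library, and 4.39 ± 0.87 under HDM (0.00227).

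The helicase gene Blm rose by 2.50 ± 0.63 and 2.87 ± 0.64, and the resection nuclease gene Exo1 by 3.15 ± 0.41 and 3.62 ± 0.42. Under VEH they were at 3.80 and 3.75 without normal VEH replicate 2. Rad54b, a relative of Rad54l, was scarce, at 0, 0.472 and 0.758 CPM in normal VEH, 0.164, 0.151 and 0.442 CPM in normal HDM, 1.19, 3.50 and 3.05 CPM in tumour VEH and 3.29, 1.91 and 5.91 CPM in tumour HDM. It had an edgeR adjusted p of 0.0472 under VEH, where 8 of 14 alternatives ended the call, and of 0.00869 under HDM. Its log2 fold changes were 2.64 ± 0.95 and 3.85 ± 1.00, 3.37 under VEH without normal VEH replicate 3 and 4.61 under HDM without normal HDM replicate 3. Xrcc2 and Xrcc3 also act in strand exchange, and Xrcc2 rose by 1.22 ± 0.33 and 1.19 ± 0.33, with the call under VEH ended by 2 of 15 alternatives. Xrcc3 was at 5.05, 4.06 and 3.03 CPM in normal VEH, 3.52, 2.45 and 6.41 CPM in normal HDM, 4.59, 5.32 and 5.21 CPM in tumour VEH and 6.90, 8.57 and 12.6 CPM in tumour HDM. As for Atr, the VEH tumours of Xrcc3 overlapped normal lung and the HDM tumours lay above every other library. Xrcc3 had log2 fold changes of 0.32 ± 0.38 under VEH (edgeR adjusted p = 0.525) and 1.18 ± 0.38 under HDM (0.0245, ended by 4 of 15 alternatives). Of its exon length, 43.4% overlaps genes such as Klc1 on the opposite strand. Klc1 had 33137 counts to 1848 of Xrcc3, so the values of Xrcc3 are uncertain.

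Of the 5 Fanconi genes, 4 rose under each treatment (median log2 fold change 1.69 and 2.55). Fanca, of the core complex that marks crosslinks, was at 18.4, 24.3 and 22.8 CPM in normal VEH, 12.8, 18.8 and 24.1 CPM in normal HDM, 84.0, 39.9 and 88.2 CPM in tumour VEH and 106, 83.6 and 136 CPM in tumour HDM. Tumour VEH replicate 2, which held the most alveolar marker RNA of the tumours, was the lowest tumour, and the part of lung RNA in this was not tested. Fanca rose by 1.69 ± 0.32 and 2.55 ± 0.33 (edgeR adjusted p = 0.00302 and 0.000262), and its exons overlap Zfp276 on the opposite strand over 29.7% of their length, so its values are uncertain. Fancd2, the protein that this complex tags with ubiquitin, rose by 1.74 ± 0.36 and 2.96 ± 0.38. Its partner Fanci was at 15.6, 12.1 and 14.2 CPM in normal VEH, 13.9, 9.67 and 20.5 CPM in normal HDM, 17.1, 22.5 and 17 CPM in tumour VEH and 18.9, 15.0 and 27.4 CPM in tumour HDM. Normal HDM replicate 3 lay above 2 of the 3 HDM tumours.

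Fanci had log2 fold changes of 0.43 ± 0.30 under VEH (edgeR adjusted p = 0.263) and 0.47 ± 0.30 under HDM (0.204). Without normal HDM replicate 3 it was called under HDM, at 0.89 (0.0315), and without the 4 conflicting libraries at 1.06 (0.0357). Exons of Fanci overlap those of Polg on the opposite strand over 18.2% of their length. Polg had 15662 counts to 5434 of Fanci, so the values of Fanci are uncertain. Of the remaining Fanconi genes, the helicase gene Brip1 rose by 2.60 ± 0.54 and 3.47 ± 0.56, and was at 3.22 under VEH without normal VEH replicate 2. Fancm, a fork remodeller, rose by 1.01 ± 0.34 and 1.65 ± 0.34, and under VEH (0.0361) 7 of 15 alternatives ended its call.

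Msh6, which finds mismatches in newly copied DNA, was at 21.8, 35.2 and 24.1 CPM in normal VEH, 19.3, 21.0 and 27.4 CPM in normal HDM, 72.3, 65.7 and 84.7 CPM in tumour VEH and 73.8, 84.7 and 86.2 CPM in tumour HDM. The tissues did not overlap, and Msh6 rose by 1.46 ± 0.20 and 1.85 ± 0.21 (edgeR adjusted p = 0.000757 and 0.000136).

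Across the 44 genes, those with less RNA in normal lung rose further. To keep the level and the rise from sharing libraries, the level in normal VEH lung was set beside the rise under HDM, and the level in normal HDM lung beside the rise under VEH. Over 44 genes, Pearson's r between the log2 RPKM and the log2 fold change was -0.67 (Spearman's rho -0.67) in the first case and -0.61 (rho -0.61) in the second. The rise subtracts a normal level, which the use of separate libraries does not undo, so a negative sign was favoured in advance. These are correlations across genes, which are not independent replicates and share the same libraries and gene lengths, so they are given as descriptions. They were not computed over all tested genes, so the trend is not shown to be particular to this list. Genes with small rises such as Rfc5, Rad54l and Fanci have exons under opposite-strand genes. So do genes with larger rises, such as Fen1 (65.9% of exon length), Rrm2 (43.3%) and Fanca (29.7%). For Rfc1 and Timeless, which rose little, no exon overlap with tested genes was found. The part of overlap in the trend was not tested. The tumour level was under 2-fold that of normal lung for 10 genes under VEH and 8 under HDM, which in both cases included Rfc1, Rfc2 and Rfc5, and it was over 8-fold for 3 genes under VEH and 13 under HDM. The 3 under VEH became 12 without normal VEH replicate 2 or without the 4 conflicting libraries, 0 without normal VEH replicate 1 and 5 without tumour VEH replicate 1.

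**Figure D4:**
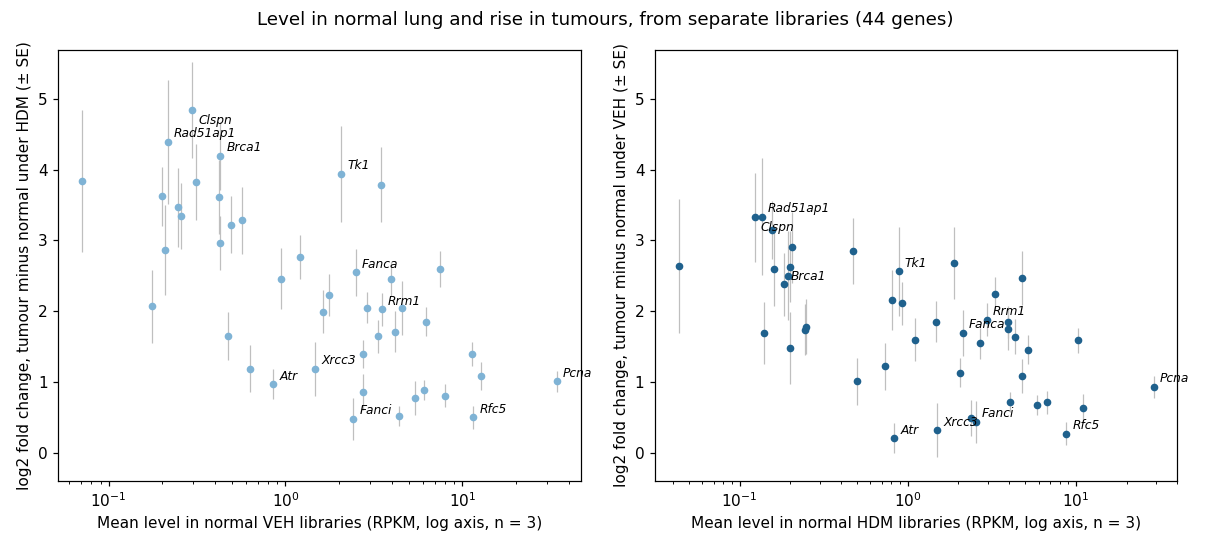
Mean level in normal lung (RPKM, log axis, n = 3) against the log2 fold change ± SE, tumour minus normal, of the other treatment for the 44 genes. Genes at the left, such as Clspn, Rad51ap1 and Brca1, rise more than genes at the right, such as Pcna and Rfc5.

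Markers of dividing cells moved with these genes. The summed level of 8 such markers, among them Mki67 and Top2a, was 32.2 to 45.6 CPM in 5 normal libraries, 176 CPM in normal VEH replicate 2 and 555 to 1133 CPM in the tumours. The 44 genes summed to 582 to 822 CPM in normal lung, highest in the same VEH replicate 2, and to 1601 to 2461 CPM in tumours, highest in tumour HDM replicate 3, which also had the most dividing-cell RNA. Of the 44 genes, 29 had their highest normal level in normal VEH replicate 2, and 37 had their highest level of all in tumour HDM replicate 3. Such counts were not made over all tested genes, so they are not shown to be particular to this list. Per CPM of dividing-cell markers, the 44 genes had 14.1 to 20.4 CPM in 5 normal libraries, 4.67 in normal VEH replicate 2 and 2.17 to 2.89 in the tumours, so the markers differed more between tissues than the 44 genes did. Normal VEH replicate 2 also had the highest sum of 6 fibroblast and matrix markers in normal lung, 2681 CPM beside 668 to 1610. Of these, Col3a1, Dcn and Lum were highest there, and Col1a1, Pdgfra and Col13a1 were not. Its sum of 6 endothelial markers was the lowest in normal lung, 1509 CPM beside 2578 to 3136. The part of dividing or other cells in the rise of each gene was not tested. Leaving out normal VEH replicate 2 moved the fold change of 13 of the 44 genes under VEH by over 1.5 times, all of them upward, and moved the median from 1.72 to 2.01, with 38 genes called.

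**Figure D5:**
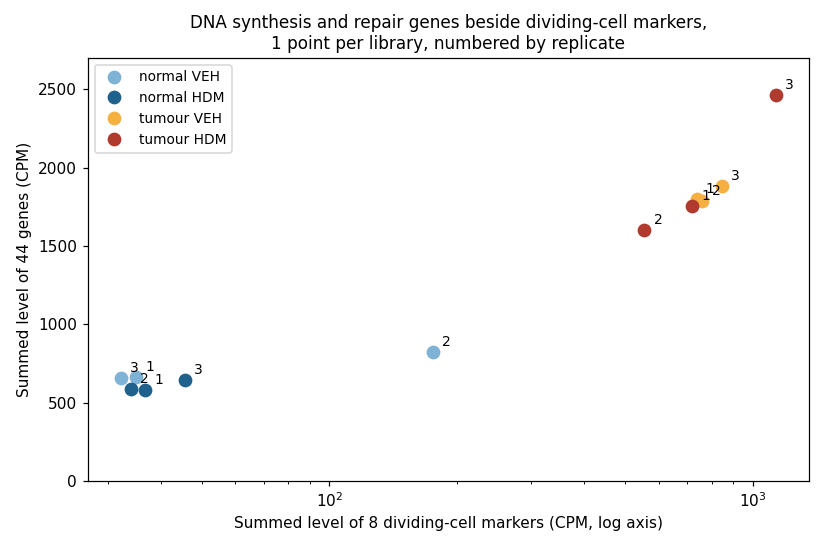
Summed level of 8 dividing-cell markers (CPM, log axis) against the summed level of the 44 genes (CPM), 1 point per library, coloured by group and numbered by replicate. Normal VEH replicate 2 lies between the other normal libraries and the tumours, and tumour HDM replicate 3 lies highest on both axes.

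The treatment comparisons ask whether HDM moved these genes within a tissue. In normal lung, none of the 44 genes was called between HDM and VEH, beside 0% of all tested genes (edgeR, smallest adjusted p among the members 0.864). Without adjustment, 5 members and 1230 of all tested genes passed 0.05. DESeq2's Wald test called 38 genes and no member. The median log2 fold change of the 44 genes, HDM minus VEH, was -0.26, and 37 of them were below 0. Without normal VEH replicate 2 this median was -0.03. The libraries of both treatments did not overlap, with HDM lower, for 6 genes (Dut, Brca1, Rfc5, Pcna, Rfc3 and Fancd2), beside 5.85% of all tested genes, and with HDM higher for none, beside 4.47%.

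The smallest p-values in normal lung belonged to Dut, Brca1 and Bard1. Dut was at 15.8, 24.8 and 13.8 CPM under VEH and 9.79, 8.23 and 13.2 CPM under HDM, a log2 difference of -0.80 ± 0.25 (edgeR adjusted p = 0.864). The level of Brca1 differed by -1.21 ± 0.44 (edgeR adjusted p = 0.887). It differed by -0.45 without normal VEH replicate 2, the normal library with the most dividing-cell RNA. Bard1 differed by -0.99 ± 0.39 (adjusted p = 0.887).

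In tumours, none of the 44 genes was called between HDM and VEH either, beside 0.0946% of all tested genes (21 genes, 0.00901% higher and 0.0856% lower; edgeR, smallest adjusted p among the members 0.192). Without adjustment, 3 members and 3698 of all tested genes passed 0.05. The median log2 fold change of the members was 0.16, with 31 above 0 and 13 below, and without tumour HDM replicate 3, the library with the least lung RNA and the most dividing-cell RNA, it was -0.06. Libraries did not overlap for 4 genes with HDM higher (Atr, Xrcc3, Fancm and Brca1), beside 11.3% of tested genes, and for 2 with HDM lower (Rad54l and Fen1), beside 10.7%. These shares are no higher than those of all genes. The members with the smallest p-values were Atr (0.72 ± 0.21, edgeR adjusted p = 0.192), Rad54l (-0.32 ± 0.14, adjusted p = 0.279) and Xrcc3 (0.89 ± 0.38, adjusted p = 0.279). DESeq2's Wald test called 1308 genes, and Atr was the only member among them (0.69, DESeq2 adjusted p = 0.0482).

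The interaction asks whether the rise in tumours differed between treatments. No member was called, beside 0% of all tested genes (edgeR, smallest adjusted p among the members 0.48), while 6 members and 2084 genes had an unadjusted p below 0.05. The larger medians and counts under HDM are therefore not shown to differ from those under VEH, and nor is the call of Rfc5, Atr, Timeless and Xrcc3 under HDM alone. The difference in log2 fold change, HDM minus VEH, was above 0 for 37 of the 44 genes, with a median of 0.44, and of 0.20 without normal VEH replicate 2. Brca1 had 1.82 ± 0.60 (edgeR adjusted p = 0.48), Dut 0.96 ± 0.34 (adjusted p = 0.493) and Brca2 1.66 ± 0.61 (adjusted p = 0.505). Without normal VEH replicate 2 the value of Brca1 was 1.05. Without the 4 conflicting libraries, 0 members were called in normal lung, in tumours or in the interaction.

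Other genes of DNA synthesis and repair, 113 in 8 lists, were tested in the same fits. Under VEH 58 were called higher and 5 lower in tumour, and under HDM 70 and 4, with medians of 0.61 and 0.87. Of all tested genes, 18.2% were called higher and 20.6% lower under VEH, and 23% and 28.9% under HDM. Called the same way under both treatments were 53 higher and 3 lower, by edgeR, and that share was not computed over all tested genes. Called higher under VEH and HDM were 13 and 14 of 18 other replication genes, 6 and 5 of 9 other deoxynucleotide genes, 6 and 7 of 11 other checkpoint genes and 13 and 17 of 30 other recombination and crosslink genes. In the repair lists they were 5 and 6 of 6 mismatch repair genes, 3 and 4 of 8 end-joining genes, 9 and 12 of 24 excision repair genes and 3 and 5 of 7 translesion genes, beside 18.2% and 23% of all tested genes. Differences between lists were not tested.

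Among the larger rises under both treatments, at an average log2 CPM of at least 3, were those of Dctd, which makes the deoxyuridylate that TYMS uses (3.36 ± 0.86 and 5.09 ± 0.95), the Holliday junction nuclease gene Gen1 (2.91 ± 0.59 and 3.94 ± 0.62), the alternative clamp loader gene Chtf18 (3.02 ± 0.40 and 2.76 ± 0.40) and the PCNA ubiquitin ligase gene Rad18 (2.14 ± 0.68 and 3.29 ± 0.71). For Rad18, 6 of 15 alternatives ended the call under VEH. Without normal VEH replicate 2 the values under VEH were 5.09 for Dctd and 3.69 for Rad18, and without normal HDM replicate 1 that of Dctd under HDM was 6.07. Without the 4 conflicting libraries, Dctd, Chtf18 and Rad18 were at 5.20, 3.62 and 3.68 under VEH and Gen1 at 4.63 under HDM. The 3 genes called lower under both were the end-joining gene Paxx (-1.64 ± 0.33 and -1.82 ± 0.33), Rrm2b and the nucleotide excision gene Xpc (-0.79 ± 0.19 and -0.79 ± 0.19), and for Xpc 1 of 15 alternatives ended the call under VEH and 3 under HDM. Paxx was at 19.5 to 33.8 CPM in normal lung and 5.72 to 13.0 CPM in tumours, and these ranges did not overlap. The gene Clic3 overlaps Paxx on the opposite strand and had 29017 counts to 5374 of Paxx. Smc6 overlaps Gen1 in the same way, with 21727 counts to 2674. Overlap of exons was not measured for these genes, so their values are uncertain. No gene of these lists was called in either treatment comparison or in the interaction by edgeR. Without adjustment, 7 of the 113 in normal lung, 16 in tumours and 9 for the interaction passed 0.05. Of the 22190 tested genes, 1230, 3698 and 2084 did so.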

How the data were processed

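RNA-seq counts of 12 mouse lung libraries, 3 in each of 4 groups, were analysed. Per the file headers, the authors deposited unnormalized counts for each Ensembl identifier, and a length for each gene. The submitters' processing notes name Trim Galore, STAR, featureCounts, Subread and mm39, and the versions, the annotation and the strand setting are not given in the sources used here. Per the labels' protocols, the kit marks strand with dUTP, and all libraries were 1 batch. Symbols and exons came from GENCODE M39 (GRCm39).

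Counts were fitted in R 4.3.3 with edgeR 4.0.16 (filterByExpr with a minimum count of 10, TMM scaling, 1 coefficient per group over 12 libraries, robust quasi-likelihood F-test, two-sided). P-values were adjusted by Benjamini-Hochberg over the 22190 tested genes of each of the 5 comparisons, and genes were called at an adjusted p below 0.05. Errors of log2 fold changes are SE. CPM values use TMM-scaled totals, and RPKM values divide them by the deposited lengths. No replicates were alike within sampling noise, so each entered as its own sample. The fit was tested on simulated counts.

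The members and the gene lists were chosen with earlier results of these data known. Any member could be named. Values in every library were given for the 2 most abundant members of each role and for uncalled members, and some others were added after their values were seen. In the treatment comparisons, the 3 members with the smallest p were named. Other pathway genes were named by the mean of both fold changes, and some are not reported here. Alternatives were DESeq2 1.42.0 size factors and Wald test, library size scaling, 2 other count filters, fits of only the compared groups, blocks for replicate number and prefix, removal of the 4 conflicting libraries, and removal of each library in turn.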

Additional observations from a re-analysis of the deposited data

How the results depend on the processing

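No called member changed direction between tumour and normal lung under any alternative that tested it, and nor did Dctd, Gen1, Chtf18, Rad18, Paxx, Rrm2b or Xpc. Direction was not checked for all other called genes. Members called higher ranged from 34 to 38 under VEH and 39 to 44 under HDM when 1 library was left out, and their medians from 1.62 to 2.01 and 2.01 to 2.38. In the same analyses the median of the 44 genes was -0.36 to -0.03 for HDM minus VEH in normal lung, -0.06 to 0.29 in tumours and 0.20 to 0.62 for the interaction, all genes called were 5733 (without tumour VEH replicate 1) to 9070 under VEH, 9822 to 10695 under HDM, 0 to 24 for HDM minus VEH in tumours and 0 to 6 for the interaction, and other pathway genes called were 45 to 58 under VEH and 65 to 80 under HDM. Replicate numbers did not pair the libraries: over 18 same-numbered pairs the correlation of deviations ranged from -0.45 to 0.39, and 9 were above 0.1. With a replicate block 39 and 43 members were called (under VEH Palb2 was not and Timeless was), and 1 gene was called between HDM and VEH tumours. A block by prefix (6 pairs, r -0.27 to 0.25) gave 32 members (without Rfc1, Rfc2, Rpa1, Rad54b, Brca2, Palb2 and Fancm) and 41 (without Rfc5 and Rad54l), 38 other pathway genes under VEH, 0 genes between treatments in tumours, and member medians of -0.53 in normal lung and -0.15 in tumours for HDM minus VEH. Without the 4 conflicting libraries, 5603 genes were called under VEH and 0 between treatments in tumours, and the member medians were 2.01 and 2.49. The 21 genes called between treatments in tumours became 8 with library size scaling, 52 with no filter, 53 where each library had to hold 10 counts or more, 0 with only the compared groups and 1308 with DESeq2's Wald test, which called 1 member there and 4 other pathway genes, 38 genes in normal lung and 219 for the interaction. With library size scaling the share of called genes that were higher moved from 46.9% to 55.1% under VEH. The E2F share of 57.1% was 26.2% with only the bases before the start. Causes were not tested. Depth limits Rad54b, with 0 counts in 1 normal library.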
